A study of Saccharomyces cerevisiae with 6 samples.

Results

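A strain of the budding yeast Saccharomyces cerevisiae labelled aft1aft2, by its label an aft1 mutant with AFT2 deleted, was compared with the strain labelled aft1. The AFT1 and AFT2 spots, described below, did not bear out these labels. The comparison was chosen by the sample titles that name these 2 strains, which gave 2 of the 6 samples of the series, experiments 1 and 2, each with a log ratio at 6084 spots. The labels name the mutant strains Y18 (aft1) and Y18aft2delta (aft1aft2) and the wild type CM3260 (wt), and describe all of them as minus iron, so by the labels both sides of the comparison shared the aft1 mutation and the iron condition. Total RNA from exponentially growing cells was hybridised to GeneFilters, nylon membranes that carry spots of yeast DNA, and a phosphor screen read the bound label. The labels do not give the mating type, the construction of the mutations or the number of clones behind a strain. They say that hybridisations were made in duplicate but not that experiments 1 and 2 came from separate cultures. The p-values below therefore measure only how far these membranes differ, and that spread may be technical.

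Aft1 and Aft2 are related transcription factors that switch on iron genes when yeast cells are short of iron. Aft1 is known mainly for genes of iron uptake at the cell surface, and Aft2 mainly for genes that move iron out of the vacuole and into mitochondria. Because Aft1 also acts on many genes that Aft2 can reach, the effect of Aft2 is usually studied in cells that lack Aft1.

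Every value below is a log2 ratio of aft1aft2 to aft1, centred so that the median spot of its experiment is 0, unless another pair of strains is named. The base of the logarithm and the order of the ratio were not given in the sources used here. Base 2 is assumed, and the order is likely rather than stated: it rests on how the titles name the strains and on uptake genes that should be low without Aft1. The other order would turn every sign and keep every size. A difference in a culture's total RNA for a gene cannot separate fewer cells that express it from less RNA per cell. Spot intensities were not used here, so the signal behind a ratio is unknown, and the number of membranes, 2 per strain, limits the precision.

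The spots of the 2 regulators did not bear out the labels. AFT2, which the labels give as deleted, was 0.21 in experiment 1 and 2.00 in experiment 2, a mean of 1.11 ± 0.54 in aft1aft2 against aft1 (limma adjusted p = 0.286). Against wt, AFT2 was -0.40 and 1.96 in the strain labelled aft1aft2 and -0.61 and -0.06 in the strain labelled aft1, so no loss of signal was seen in experiment 2. AFT1 was -0.47 and -0.77, or -0.62 ± 0.25 (limma adjusted p = 0.213), and against wt it was 0.15 and -0.09 in the strain labelled aft1 and -0.33 and -0.86 in the strain labelled aft1aft2. Strain names in the text are therefore those of the labels. Which part of each gene a spot carries, and which part each mutation removed, was not given in the sources used here.

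Neighbouring spots moved with AFT2 in experiment 2. The 4 spots beside it belong to CSM4, YIG1, TPK2 and HRR25, genes next to AFT2 on the chromosome. In experiment 2 CSM4 was 1.57, YIG1 1.82 and HRR25 1.85, while TPK2 was 0.20. In experiment 1 they were 0.28, 0.16, 0.17 and, for TPK2, -1.12. The running median of 21 spots centred on AFT2 was 0.32 in experiment 1 and 1.09 in experiment 2. With each spot set against its running median, an alternative chosen after seeing the data, AFT2 was 0.41 (limma adjusted p = 0.528, in a range from 0.227 to 0.528 over the alternatives that kept all membranes). Without aft1aft2 replicate 1 AFT2 passed as higher, at 2.14 (limma adjusted p = 0.0207), and without aft1aft2 replicate 2 it was 0.07 (0.924). Around AFT1 the running medians were -0.26 and -0.41. Its neighbours were -0.82 ± 0.26 for MNP1, -0.25 ± 0.26 for RPB9, -0.19 ± 0.25 for HSF1 and 0.10 ± 0.24 for MPS2.

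Genes that transport, store or sense iron are described next. Of 46 genes in 5 iron lists, 7 were lower in aft1aft2 and 0 were higher by limma's moderated test, at a Benjamini-Hochberg adjusted p under 0.05 over all spots. That is 15.2% of these genes, where 2.6% of all 6084 spots were called lower. The 7 genes were SMF3, MRS4, FTH1 and TIS11, which handle iron inside the cell, and APE1, PRY1 and AKR1, listed as other targets of the Aft factors. The median of the 46 means was -0.57, beside 0.03 over all spots. In both experiments 28 of the 46 lay below 0 (60.9%), as did 33.2% of all spots. The gene lists here and below were chosen with earlier results of these data known. The shares therefore describe the lists and are no test of them. None of the 6 genes of reductive uptake and none of the 9 genes of siderophore uptake passed the test.

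**Figure D1:**
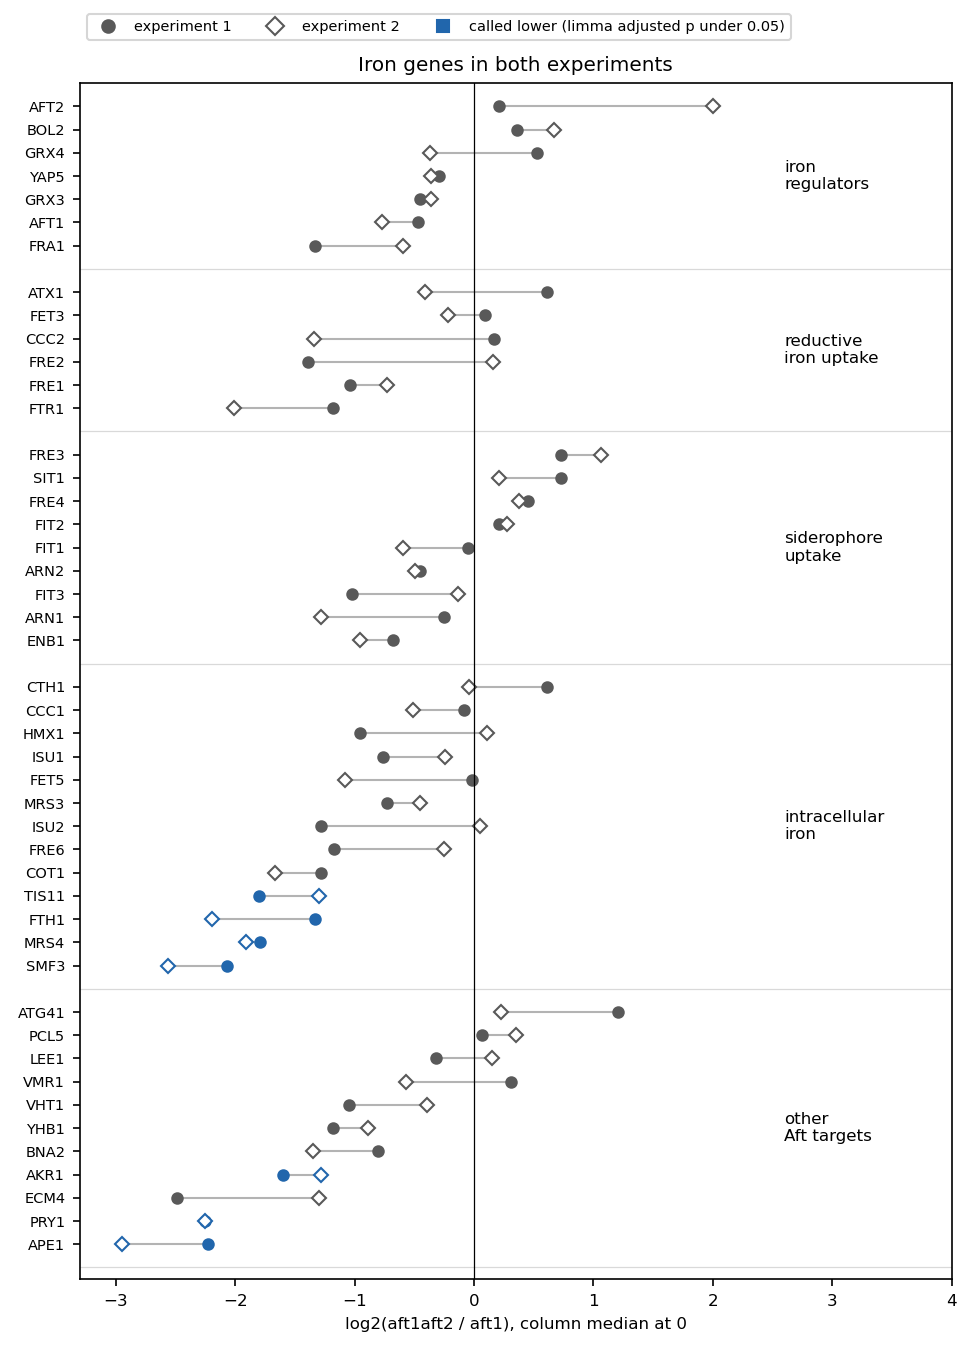
Log2 ratio of aft1aft2 to aft1 (horizontal axis) for the 46 iron genes, in rows grouped by role, with circles for experiment 1, diamonds for experiment 2 and blue for the 7 genes called lower by limma. The called genes lie between -1.28 and -2.95 in each experiment, while AFT2 reaches 2.00 in experiment 2 alone.

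SMF3 encodes a transporter that releases iron from the vacuole. Its ratio was -2.07 in experiment 1 and -2.56 in experiment 2. The mean was -2.31 ± 0.27 (SE, n = 2 membranes per strain) or 4.97-fold lower, with a limma adjusted p of 0.013. Each SE comes from the limma fit, which pools the spread over all strains, and is not the spread of the 2 experiments alone. Both experiments placed SMF3 far below the median spot. FTH1, the vacuolar membrane iron permease, was -1.33 and -2.19, a mean of -1.76 ± 0.29 (limma adjusted p = 0.0383). Its partner oxidase FET5 was -0.02 and -1.08 and did not pass (-0.55 ± 0.31, limma adjusted p = 0.353). MRS4, a carrier that brings iron into mitochondria, was -1.79 and -1.91, or -1.85 ± 0.33 (limma adjusted p = 0.0468). The related carrier MRS3 was -0.73 and -0.45 and did not pass (limma adjusted p = 0.305). TIS11, also called CTH2, encodes a protein that promotes the decay of mRNAs for iron-using proteins. It was -1.80 and -1.30, or -1.55 ± 0.26 (limma adjusted p = 0.0404), while its relative CTH1 was 0.61 and -0.04. In each of these 4 genes the 2 experiments agreed in sign and lay within 0.86 of each other.

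The other 9 genes of iron inside the cell did not pass. The nearest was COT1, a vacuolar transporter of cobalt and zinc, at -1.28 and -1.67, with a mean of -1.47 ± 0.27 and a limma adjusted p of 0.0502, just above the threshold. The vacuolar iron reductase gene FRE6 was -1.17 and -0.25, and the vacuolar iron importer gene CCC1 was -0.08 and -0.51. The haem oxygenase gene HMX1 was -0.95 and 0.11. The genes of the iron-sulfur scaffold proteins were -0.76 and -0.24 for ISU1 and -1.28 and 0.05 for ISU2. Over all 13 genes 10 were below 0 in both experiments.

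Among 11 other genes that have been linked to Aft1 or Aft2, APE1 had the lowest mean. It encodes a vacuolar aminopeptidase and was -2.23 and -2.95, with a mean of -2.59 ± 0.27, 6.02-fold lower (limma adjusted p = 0.00897). PRY1, which encodes a secreted sterol-binding protein, was -2.25 in both experiments (SE 0.23, limma adjusted p = 0.00855). AKR1, a palmitoyltransferase gene, was -1.60 and -1.28, or -1.44 ± 0.24 (limma adjusted p = 0.0362). ECM4, a glutathione transferase gene, was -2.49 and -1.30 with an SE of 0.40 and did not pass (limma adjusted p = 0.0705). The remaining genes did not pass either. BNA2 was -0.80 and -1.35, the flavohaemoglobin gene YHB1 -1.18 and -0.89, and the biotin transporter gene VHT1 -1.05 and -0.39. ATG41 at 1.21 and 0.23 and PCL5 at 0.07 and 0.35 were above 0 in both experiments. VMR1 at 0.31 and -0.57 and LEE1 at -0.32 and 0.15 changed sign between them.

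The genes of reductive uptake make the cell surface system that reduces iron, oxidises it and carries it in. FTR1, the permease of that system, was -1.18 and -2.01, with a mean of -1.59 ± 0.29 and a limma adjusted p of 0.0502. The limma adjusted p ranged from 0.0185 to 0.101 over 5 alternatives that kept all membranes. FET3, the oxidase that works with Ftr1, was 0.09 and -0.22, a mean of -0.06 ± 0.25, and its sign depended on the scaling. The surface reductase genes were -1.04 and -0.73 for FRE1 and -1.39 and 0.16 for FRE2. CCC2 and ATX1, which supply copper to Fet3, were 0.17 and -1.34 for CCC2 and 0.61 and -0.41 for ATX1. The experiments therefore differed in sign for FET3, FRE2, CCC2 and ATX1, and no gene of the list passed the test.

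Siderophores are iron chelators that yeast takes up through dedicated transporters. Of these transporters ENB1 was -0.68 and -0.95, ARN1 -0.25 and -1.28, ARN2 -0.45 and -0.49, and SIT1 0.73 and 0.21. The cell wall mannoprotein genes that help to retain siderophores were -0.05 and -0.59 for FIT1, 0.21 and 0.28 for FIT2, and -1.02 and -0.13 for FIT3. The siderophore reductase genes were 0.73 and 1.06 for FRE3 and 0.45 and 0.38 for FRE4. Means in this list ran from -0.81 to 0.90 around a median of -0.32, and 2 of the 9 had an unadjusted p under 0.05.

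The same membranes place both mutants against wt, and the values are given side by side because the comparisons share hybridisations. SMF3 stood at 0.78 ± 0.27 for aft1 over wt and at -1.53 ± 0.27 for aft1aft2 over wt. MRS4 was 1.66 ± 0.33 and -0.18 ± 0.33, FTH1 0.50 ± 0.29 and -1.25 ± 0.29, and TIS11 -0.75 ± 0.26 and -2.30 ± 0.26. APE1 was 1.21 ± 0.27 and -1.38 ± 0.27. FET3 was instead low in both mutants, at -3.43 ± 0.25 in aft1 and -3.49 ± 0.25 in aft1aft2. FIT2 was lower still, at -5.85 ± 0.24 and -5.60 ± 0.24. The order of the ratio was taken partly from uptake genes that should be low without Aft1. The low sign of FET3 and FIT2 is therefore no separate result. How far these spots stood above background is not known here. FTR1 was -0.10 ± 0.29 in aft1 and -1.69 ± 0.29 in aft1aft2.

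**Figure D2:**
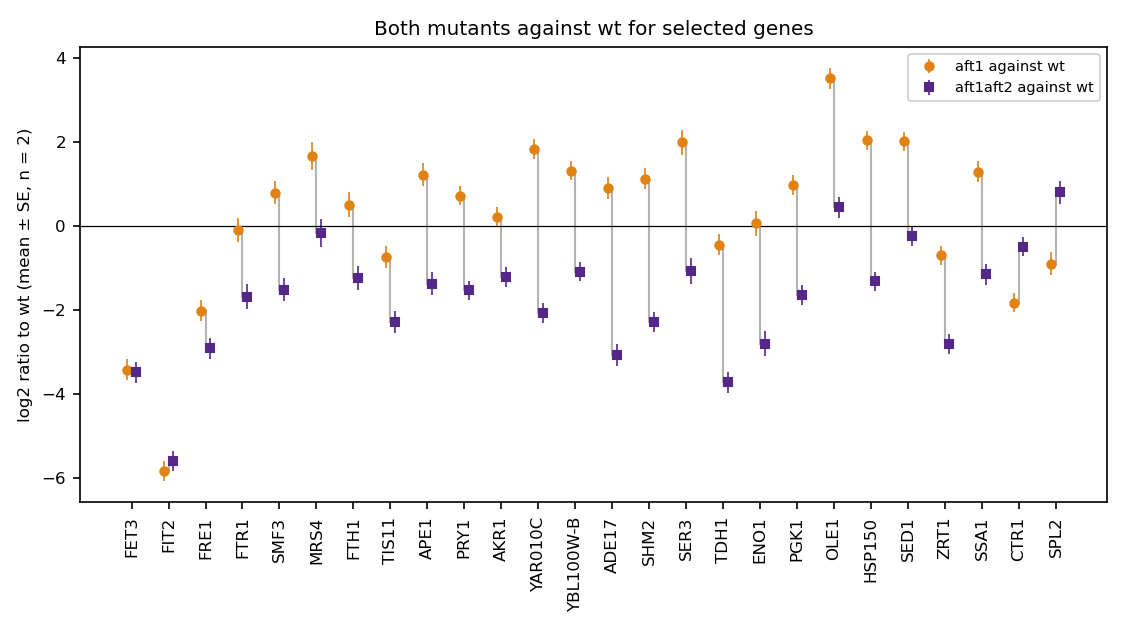
Log2 ratio to wt (vertical axis, mean ± SE from the limma fit, n = 2 membranes per strain) for 26 genes, with orange circles for aft1 and purple squares for aft1aft2. FET3 and FIT2 are low in both mutants under the order of the ratio assumed here. SMF3, MRS4, the Ty1 spot YAR010C, OLE1 and HSP150 are above 0 in aft1 and lower in aft1aft2.

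The calls of the 7 iron genes depended on which membranes were in the fit and on its settings. Without aft1 replicate 1 or 2 these calls were lost, with means still below 0, as in both experiments. They were -2.37 and -2.26 for SMF3 and -2.15 and -1.55 for MRS4. A strain left with 1 membrane adds nothing to the estimate of spread, so a call lost there need not mean a changed value. Without aft1aft2 replicate 1, 6 passed, and without aft1aft2 replicate 2, 4 passed. With the columns as deposited, not centred, SMF3, PRY1 and APE1 passed, and with the 2 direct columns only MRS4 passed with them.

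The other iron regulators did not pass the test. The glutaredoxin genes were -0.45 and -0.36 for GRX3 and 0.53 and -0.37 for GRX4, whose proteins pass the iron signal to Aft1. Their partner genes were -1.33 and -0.59 for FRA1 and 0.36 and 0.67 for BOL2. YAP5, a regulator of the response to high iron, was -0.29 and -0.36. FRA1 had the lowest mean of the list, -0.96 ± 0.33 (limma adjusted p = 0.167).

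Next come 91 genes in 5 lists, for iron cofactor assembly, iron-using enzymes, respiration and the tricarboxylic acid cycle. Of these 2 were called lower, or 2.2%, a share near the 2.6% of all spots. The lists hold whole pathways and complexes, so the share is not one of iron-using genes alone. OLE1, ERG3 and ERG25, iron-using enzymes called lower, stand in other lists described below. The helicase genes CHL1 and DNA2, called higher and described below, stand in no list. Iron-using enzymes outside the 5 lists were not counted, so the genes named here do not show which way such enzymes went. Of 22 genes of iron-sulfur cluster assembly 0 passed, with a median of 0.04 and a range from -0.61 for ISU2 to 0.65 for NAR1. Of 16 genes of iron-using enzymes outside respiration 0 passed, with a median of 0.19. Among them LIP5, the lipoic acid synthase, was 0.95 and 1.43, and CTT1, the cytosolic catalase, 1.17 and 0.84. The 8 haem synthesis genes had a median of -0.74, and 7 of them were below 0 in both experiments. HEM15, the ferrochelatase that inserts iron into haem, was -1.25 and -1.26 (limma adjusted p = 0.0637), and HEM2 was -0.90 and -1.89 (limma adjusted p = 0.0745). Of 34 genes of the respiratory chain and ATP synthase 1 fell, ATP2 at -1.90 ± 0.26, and the list's median was 0.05. Of 13 genes of the tricarboxylic acid cycle LSC1 alone fell, to -2.35 ± 0.24. Neither call remained without aft1 replicate 1 or 2, and ATP2 was also lost with the columns as deposited.

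Across all 6084 spots limma called 172, which is 2.83%, and 1372 had an unadjusted p under 0.05. Of the calls 158 (2.6%) were lower in aft1aft2 and 14 (0.23%) were higher, and 8 and 2 of them carried no gene name. Each of the 172 was at least 2-fold away from the median in both experiments and on the same side in both. Counting by fold alone, with no test, 236 spots (3.88%) were at least 2-fold lower in both experiments, 49 (0.805%) were higher and 5 went opposite ways. As deposited, without centring, these counts were 149 lower and 116 higher. At least 4-fold in both experiments were 54 lower spots and 1 higher. The smallest adjusted p was 0.00317.

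**Figure D3:**
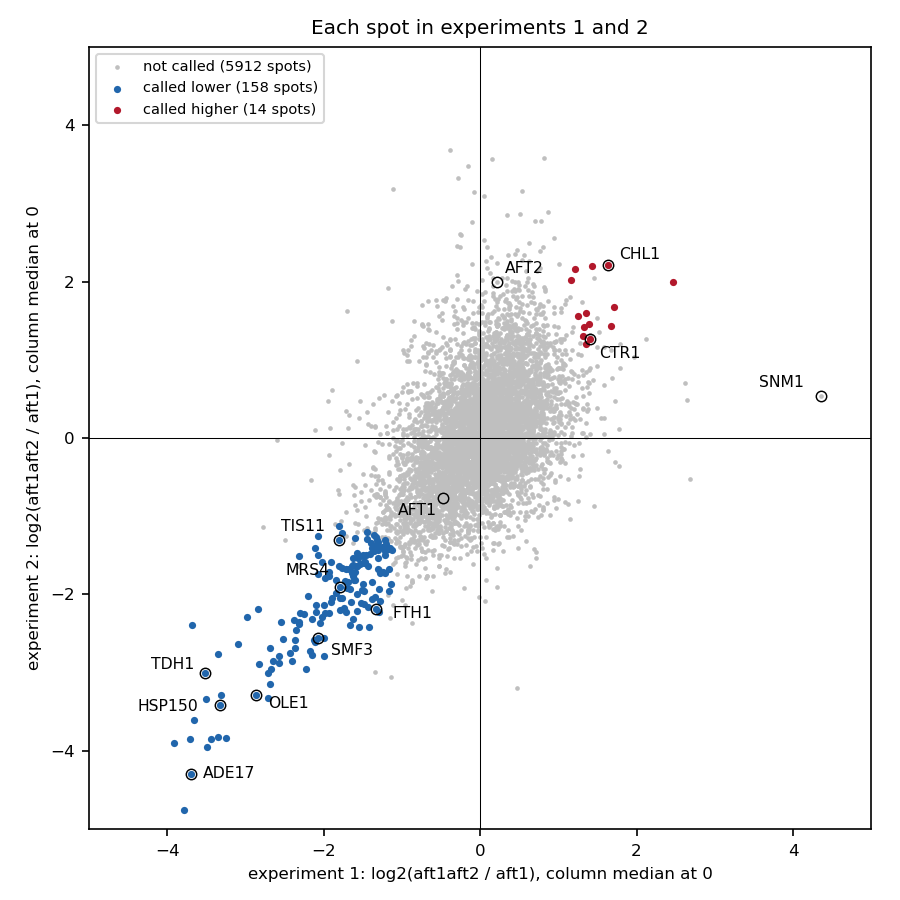
Log2 ratio of aft1aft2 to aft1 at 6084 spots in experiment 1 (horizontal axis) and experiment 2 (vertical axis), with 158 spots called lower in blue, 14 called higher in red and 5912 not called in grey. The means of the lower calls run from -4.27 to -1.26. The called spots lie near the diagonal in part because the test favours spots whose experiments agree. The circled spots AFT2 and SNM1 moved mainly in 1 experiment.

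Across spots the 2 experiments correlated with a Pearson r of 0.554 and a Spearman rho of 0.486, and 4051 spots (66.6%) had the same sign in both. These values describe spots of the same membranes and are no test. The spread was wider in experiment 2, with an SD of 0.817 against 0.641. Of 32 gene symbols on more than 1 spot, 4 had identical values in every column, and the other 28 differed between their spots by a median of 0.28 in experiment 1 and 0.475 in experiment 2. The membrane of aft1aft2 in experiment 2 had the widest spread of levels, with an SD of 0.512 beside 0.347 to 0.421 on the others.

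The counts turned on which membranes were kept in the fit. A strain left with 1 membrane adds nothing to the estimate of spread. Without aft1aft2 replicate 1 there were 503 calls, 255 higher and 248 lower, and without aft1aft2 replicate 2 there were 90, of which 5 were higher. Without aft1 replicate 1 there were 14 calls and without aft1 replicate 2 there were 13, all of them lower and all among the 172. Without either wt replicate there were 256, 43 higher and 213 lower, among which all 172 remained. Of 69 calls that fell in the 45 gene lists, most of those named below were therefore lost when aft1 rested on 1 membrane, and the exceptions are given with their groups. The 22 calls of the retrotransposon lists are described first, 71 further calls were named spots in none of the lists, and 10 had no name. Of the 45 lists 24 had a lower call, 3 had a higher call and 18 had none. Over all spots 2.6% were called lower, 0.23% were called higher and 33.2% were below 0 in both experiments. The counts of each list below are to be read beside these shares.

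Among the calls with a gene name, spots of the retrotransposon Ty1 made up most of the largest falls. Ty1 is a mobile element that yeast keeps in many near-identical copies, and its RNA encodes the coat protein Gag and the longer Gag-Pol protein. These lists were chosen after their values were seen. All 8 spots named for Ty1 Gag were called lower, with means from -3.03 to -3.90 and a median of -3.64. YAR010C, with the lowest mean, was -3.91 and -3.90, a mean of -3.90 ± 0.23 or 15.0-fold lower (limma adjusted p = 0.00317). The experiments differed most for YMR046C, at -3.68 and -2.39. All 12 spots for Ty1 Gag-Pol were called lower as well, from -2.36 for YER138C to -3.54 for YBR012W-B, with a median of -2.78. Because the copies share sequence, the 20 spots may measure the same RNA and are not 20 separate results.

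Other Ty families gave mixed calls. Both Ty2 Gag-Pol spots were called lower, YBL100W-B at -2.41 ± 0.23 and YCL019W at -2.54 ± 0.23. Neither Ty2 Gag spot was, with YBL100W-A at -0.38 and -0.53 and YCL020W at -0.28 and -0.11. The pol regions of Ty1 and Ty2 are closely alike, so a Ty2 Gag-Pol spot may also have bound Ty1 RNA, which was not tested. Of 3 Ty3 and Ty4 spots none passed, and their median was 0.51. Against wt the Ty1 spot YAR010C was 1.82 in aft1 and -2.08 in aft1aft2. Without aft1 replicate 1 or 2, 7 of the 8 Ty1 Gag spots still passed, 2 and 1 of the 12 Gag-Pol spots did, and neither Ty2 Gag-Pol spot did.

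**Figure D4:**
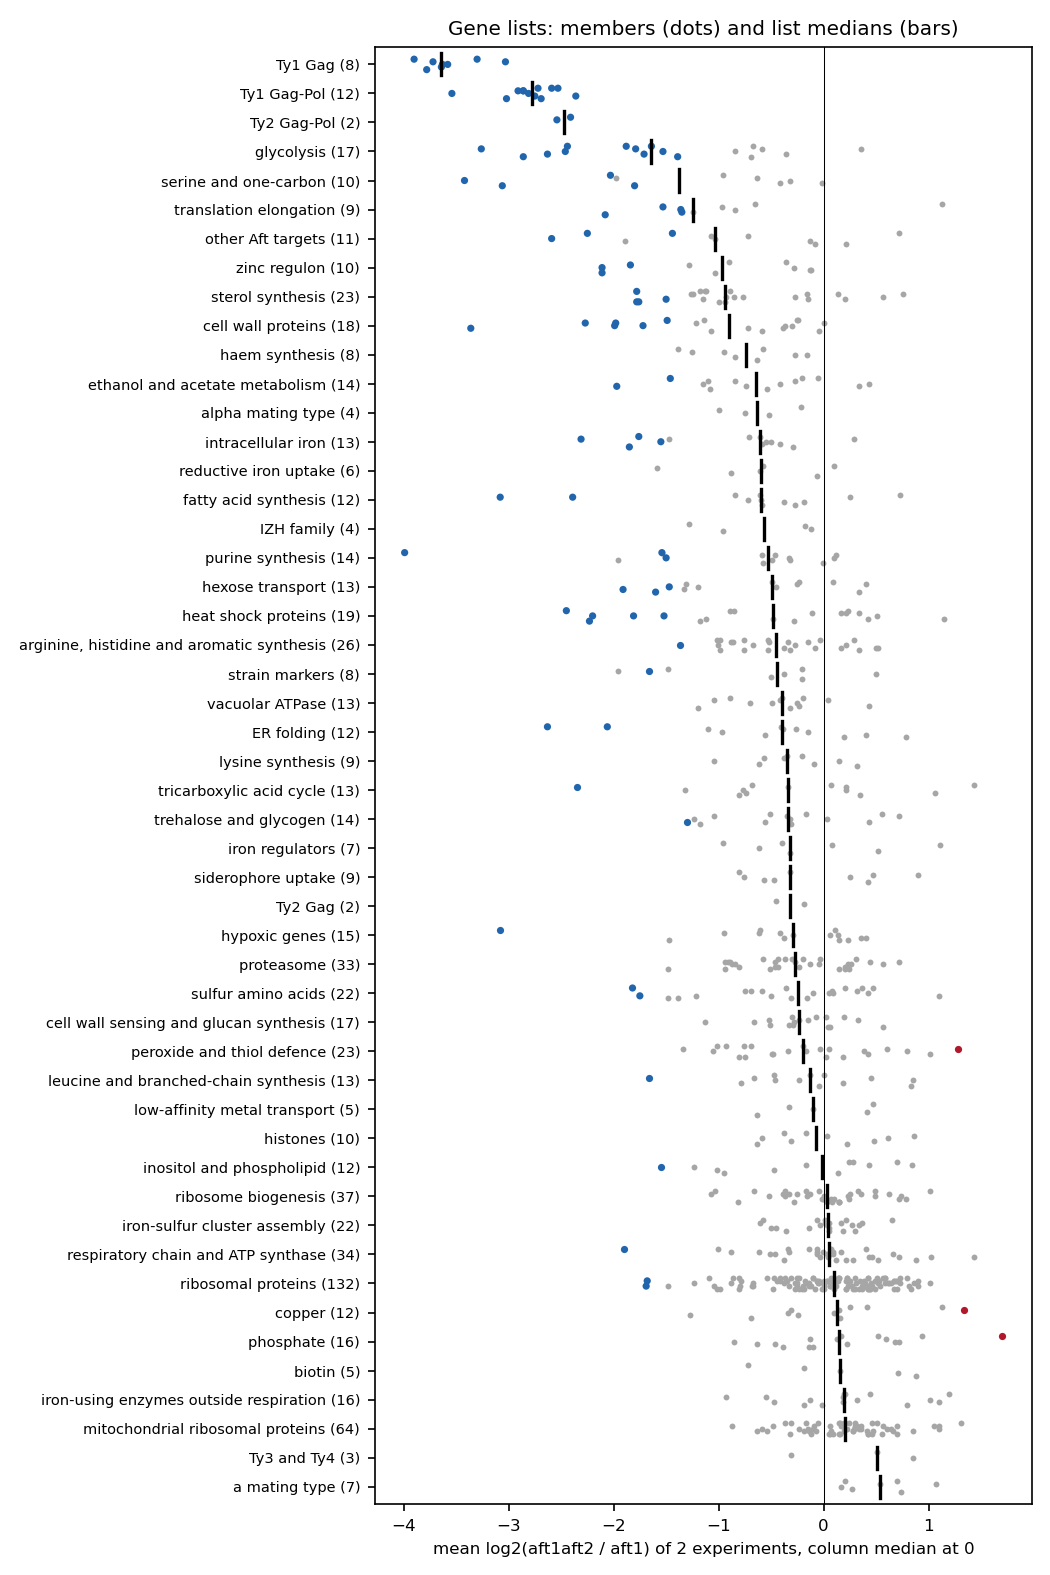
Mean log2 ratio of aft1aft2 to aft1 (horizontal axis) of each member (dots, blue where called lower and red where called higher) in 45 gene lists and 5 Ty lists, with the number of spots in brackets, ordered by list median (black bars). Ty1 lies lowest, glycolysis has a median of -1.64, and ribosomal proteins at 0.10 lie close to the median of all spots, 0.03.

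Glycolysis turns glucose into pyruvate, and its enzymes are among the most abundant proteins of a yeast cell. Of 17 genes 11 fell (64.7%, beside 2.6% of all spots), the median was -1.64 and 15 of the 17 were below 0 in both experiments. TDH1, a glyceraldehyde-3-phosphate dehydrogenase gene, was -3.52 and -3.01, a mean of -3.26 ± 0.25 (limma adjusted p = 0.00466). The enolase genes ENO1 and ENO2 had means of -2.86 ± 0.29 and -2.44 ± 0.27, and the phosphoglycerate kinase gene PGK1 was -2.63 ± 0.24. The enzymes that phosphorylate glucose fell too, with GLK1 at -2.46 ± 0.26, HXK1 at -1.88 ± 0.23 and HXK2 at -1.79 ± 0.27. FBA1, CDC19, TDH2 and GPM1 completed the calls, with means from -1.39 to -1.71. TDH3 at -1.0 and -0.68, TPI1, PGI1, PFK1, PFK2 and PYK2 did not pass. TDH1, TDH2 and TDH3 are close copies, as are ENO1 and ENO2, so their spots may share signal. Without aft1 replicate 1 none of the 11 passed, without aft1 replicate 2 only TDH1 did, and without aft1aft2 replicate 2 there were 6. With the columns as deposited 5 passed.

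Genes on either side of glycolysis gave fewer calls. Of 13 hexose transporter and sensor genes 3 fell (23.1%, beside 2.6% of all spots). HXT6 was -1.91 ± 0.23, HXT3 -1.60 ± 0.24 and HXT7 -1.47 ± 0.23. HXT6 and HXT7 are near-identical and may share signal. HXT4 was -2.60 in experiment 1 and -0.03 in experiment 2. Of 14 genes of ethanol and acetate metabolism the acetaldehyde dehydrogenase gene ALD6 fell to -1.97 ± 0.27 and PDC5 to -1.46 ± 0.27. TPS2, a trehalose synthesis gene, was the 1 call among 14 genes for trehalose and glycogen, at -1.30 ± 0.24. None of these 6 genes passed without aft1 replicate 1 or 2 or with the columns as deposited, and without aft1aft2 replicate 2 HXT6 and PDC5 did.

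Serine and one-carbon metabolism makes serine and glycine and loads folate with one-carbon units, which purine synthesis uses. Of its 10 genes 4 fell, with a list median of -1.38. SHM2, the cytosolic serine hydroxymethyltransferase, was -3.51 and -3.34, a mean of -3.42 ± 0.24 or 10.7-fold lower (limma adjusted p = 0.00317). SER3 was -3.35 and -2.76, or -3.06 ± 0.30, and encodes the first enzyme of serine synthesis. SER1, a later enzyme, was -1.80 ± 0.29, and GCV3, a subunit of the glycine cleavage system, -2.03 ± 0.27. SER33, a copy of SER3, was -2.33 and -1.63 and did not pass (limma adjusted p = 0.0582). Of 14 purine synthesis genes 3 fell (21.4%), and the median was -0.53. ADE17, which carries out the last steps to inosine monophosphate, was -3.70 and -4.29, a mean of -3.99 ± 0.26 or 15.9-fold lower. No spot with a gene name had a lower mean. Its copy ADE16 was -0.60 and -0.33. MTD1 at -1.54 ± 0.23 and ADE13 at -1.50 ± 0.25 were the other calls. ADE2, at -2.78 and -1.14, and ADE1, at -0.96 and -2.13, did not pass. ADE17 and SHM2 still passed without aft1 replicate 1 and without aft1 replicate 2, and the other 5 did not. As deposited, and without aft1aft2 replicate 2, the calls that remained were ADE17, SHM2 and SER3. A spot with no gene name was -3.78 and -4.76, or -4.27 ± 0.30, the lowest mean of all.

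Other amino acid pathways gave 0 to 2 calls each. CYS3 at -1.82 ± 0.30 and SAM2 at -1.75 ± 0.29 fell among 22 sulfur amino acid genes (9.09%, beside 2.6% of all spots). ARO8 at -1.37 ± 0.23 fell among 26 genes for arginine, histidine and aromatic amino acids (3.85%), and none among 9 lysine genes. LEU2, a leucine gene often used as a strain marker, was -2.07 and -1.25, a mean of -1.66 ± 0.28 (limma adjusted p = 0.0397). None of these 4 calls remained with the columns as deposited or without aft1 replicate 1 or 2, and ARO8 was also lost without aft1aft2 replicate 2. The ratio of LEU2 to wt was 2.21 in aft1 and 0.56 in aft1aft2. Of the other genes used as markers none passed, with TRP1 at -0.13 and -0.64, URA3 at 0.22 and -0.64, HIS3 at 0.54 and 0.45, LYS2 at -0.11 and -0.31, and MET17 at -1.72 and -1.25. The markers carried by these strains were not given in the sources used here.

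Sterol and fatty acid genes lay mostly below 0. OLE1, the iron-containing fatty acid desaturase, was -2.87 and -3.29, or -3.08 ± 0.25 (limma adjusted p = 0.005). Against wt it was 3.51 ± 0.25 in aft1 and 0.44 ± 0.25 in aft1aft2. FAS2, a subunit of fatty acid synthase, fell to -2.39 ± 0.33, and these were the 2 calls among 12 genes of fatty acid synthesis. Of 23 sterol synthesis genes 4 fell (17.4%, beside 2.6% of all spots), 18 were below 0 in both experiments, and the median was -0.94. The calls were ERG27 at -1.78 ± 0.23, ERG13 at -1.78 ± 0.26, ERG3 at -1.76 ± 0.24 and ERG25 at -1.50 ± 0.27, and Erg3 and Erg25 are iron-using enzymes. HMG2 at 0.86 and 0.66 and IDI1 at 0.42 and 0.72 were above 0 and did not pass. OPI3, a phosphatidylcholine synthesis gene, fell to -1.55 ± 0.28, the 1 call among 12 genes for inositol and phospholipids. Among 15 hypoxic genes OLE1 alone was called, and DAN1 was -1.23 and -1.72. OLE1 still passed without aft1 replicate 1, and none of these genes passed without aft1 replicate 2. With the columns as deposited OLE1 alone remained, and ERG3, ERG25 and OPI3 were lost without aft1aft2 replicate 2.

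Cell wall protein genes fell in 6 of 18 cases (33.3%, beside 2.6% of all spots), with a list median of -0.90. HSP150, a Pir-type wall protein gene, was -3.32 and -3.41, a mean of -3.36 ± 0.23 or 10.3-fold lower (limma adjusted p = 0.00317). SED1, the gene of an abundant anchored wall protein, was -2.30 and -2.24, or -2.27 ± 0.23. PIR1 at -1.99 ± 0.24 and CIS3 at -1.72 ± 0.24, both Pir-type, SIM1 at -1.98 ± 0.29 and the glucanase-related BGL2 at -1.49 ± 0.24 were the remaining calls. PIR3 at -0.99 and -1.45 and CCW12 at -0.58 and -0.86 did not pass. None of 17 genes for wall sensing and glucan synthesis passed, and their median was -0.23. Of the 6, only HSP150 still passed without aft1 replicate 1 or 2. HSP150 and SED1 passed as deposited, and BGL2 and SIM1 were lost without aft1aft2 replicate 2.

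Chaperone genes were divided. Of 19 heat shock genes 5 fell (26.3%, beside 2.6% of all spots). SSA1 was -2.45 ± 0.25, SSA2 -2.23 ± 0.24, SSA4 -2.20 ± 0.24, SSE1 -1.81 ± 0.23 and HSP26 -1.52 ± 0.24. SSA1 and SSA2 are nearly identical and may share signal. HSP12 was 1.02 and 1.27 and HSC82 0.32 and 0.69, above 0 and not called. In the endoplasmic reticulum the chaperone gene KAR2, at -2.98 and -2.29, and the disulfide isomerase gene PDI1, at -2.0 and -2.13, were the 2 calls among 12 folding genes. All 7 calls were lost without aft1 replicate 1 or 2. As deposited SSA1, SSA2 and SSA4 remained, and without aft1aft2 replicate 2 SSE1 and HSP26 were lost.

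Translation was covered by 4 lists. Of 9 elongation factor genes 4 fell (44.4%, beside 2.6% of all spots). YEF3 was -2.08 ± 0.24, EFT1 -1.53 ± 0.23, EFT2 -1.36 ± 0.24 and TEF1 -1.35 ± 0.23. EFT1 and EFT2 encode the same protein, and TEF1 and TEF2 do as well, so their spots may share signal. HEF3, the copy of YEF3, was 0.81 and 1.44. Of 132 ribosomal protein genes 2 fell, the pair RPL8A at -1.69 ± 0.27 and RPL8B at -1.68 ± 0.25. That is 1.52%, below the share of all spots, and the median of the list was 0.10. No gene of 64 for mitochondrial ribosomal proteins and none of 37 for ribosome biogenesis passed, with medians of 0.20 and 0.03. Histone genes (0 of 10 called, median -0.07), proteasome genes (0 of 33, median -0.27) and vacuolar ATPase genes (0 of 13, median -0.40) did not pass either. The 6 translation calls were lost without aft1 replicate 1 or 2. YEF3 alone remained as deposited and without aft1aft2 replicate 2, and YEF3 and RPL8B with the direct columns only.

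Metals other than iron were also covered. The zinc regulon, genes that Zap1 switches on when zinc is low, had 3 calls among 10 genes and a median of -0.97. That is 30.0% called lower, beside 2.6% of all spots. ZRT1, the high-affinity zinc transporter, was -2.10 and -2.13, or -2.11 ± 0.23 (limma adjusted p = 0.00964). ZPS1 was -2.20 and -2.02 and the vacuolar zinc exporter gene ZRT3 -1.93 and -1.76, while ZAP1 itself was -1.39 and -0.67 and did not pass. Of the related IZH genes, IZH1 was -0.96 and -1.60 and IZH4 -0.90 and -1.02, and none of 4 passed. None of the 3 zinc calls passed without aft1 replicate 1 or 2, and ZRT1 alone passed as deposited. The low-affinity metal transporters gave 0 calls in 5 genes, with FET4, a low-affinity iron transporter, at 0.15 and 0.67. Of 5 biotin genes none passed, with BIO3 at 0.53 and 1.23.

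Copper, phosphate and peroxide genes held 3 of the 14 higher calls. CTR1, the high-affinity copper transporter, was 1.41 and 1.26, a mean of 1.34 ± 0.23 or 2.53-fold higher (limma adjusted p = 0.0404), and the other 11 copper genes did not pass. Against wt it was -1.84 in aft1 and -0.50 in aft1aft2. CTR1 lies in a stretch of spots that were high in experiment 2, where the running median around it was 1.26, and it did not pass relative to that running median (0.59, limma adjusted p = 0.281, in a range from 0.0272 to 0.281 over the alternatives that kept all membranes). SPL2, which represses low-affinity phosphate uptake, was 1.71 and 1.68, or 1.70 ± 0.27 (limma adjusted p = 0.0333), the 1 call among 16 phosphate genes. GPX2, a peroxidase gene of the glutathione peroxidase family, was 1.36 and 1.20, or 1.28 ± 0.23 (limma adjusted p = 0.0479), the 1 call among 23 genes of peroxide and thiol defence. In that list TSA1 at -0.96 and -1.15 and TRR1 at -0.90 and -0.96 were below 0 and not called. GPX2 lost its call without aft1aft2 replicate 1, and none of the 3 passed without aft1aft2 replicate 2 or without aft1 replicate 1 or 2. Over 5 alternatives that kept all membranes the limma adjusted p ran from 0.0184 to 0.0822 for GPX2 and from 0.0118 to 0.0572 for SPL2. GPX2 passed in that set only relative to the running median, and SPL2 missed only as deposited.

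The remaining named higher calls belonged to no list. CHL1, a DNA helicase gene, was 1.64 and 2.21, or 1.92 ± 0.27, 3.80-fold higher (limma adjusted p = 0.0231). FRK1, a protein kinase gene, was 1.43 and 2.20, and the uncharacterised YDL241W 1.21 and 2.16. LEA1, a splicing factor gene, was 1.16 and 2.02. DNA2, the gene of a nuclease and helicase, was 1.35 and 1.6, the kinetochore gene CBF2 1.25 and 1.56, and RGI2 1.67 and 1.43. The deacetylase gene HST2 was 1.33 and 1.42, and the phosphatase gene SSU72 1.31 and 1.30. None of these 9 passed without aft1aft2 replicate 2 or without aft1 replicate 1 or 2. RGI2 alone passed as deposited, and CHL1 and FRK1 alone with the direct columns only.

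Part of the higher calls followed the order of the spots. In experiment 2 the running median of 21 spots passed 0.8 in 8 stretches, whose centres lay 189 to 196 spot numbers apart. These held 221 spots (3.63%), with a median of 1.14 in experiment 2 and 0.35 in experiment 1. Inside them the median in experiment 2 was 1.08 for aft1aft2 against wt and -0.06 for aft1 against wt, so the high values stood in the ratios that involve aft1aft2. The stretches were defined by these values of experiment 2. Of the 14 higher calls 6 lay inside, SSU72, CHL1, HST2, LEA1, CTR1 and a spot with no name, and 0 of the 158 lower calls did. The part of spot order in these results was not otherwise tested than by setting each spot against its running median, which kept 9 of the 14 higher calls, 149 of the 158 lower calls and all 7 iron genes. In that setting CHL1 passed at 1.16, and SSU72 at 0.46, HST2 at 0.60 and LEA1 at 0.91 did not.

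**Figure D5:**
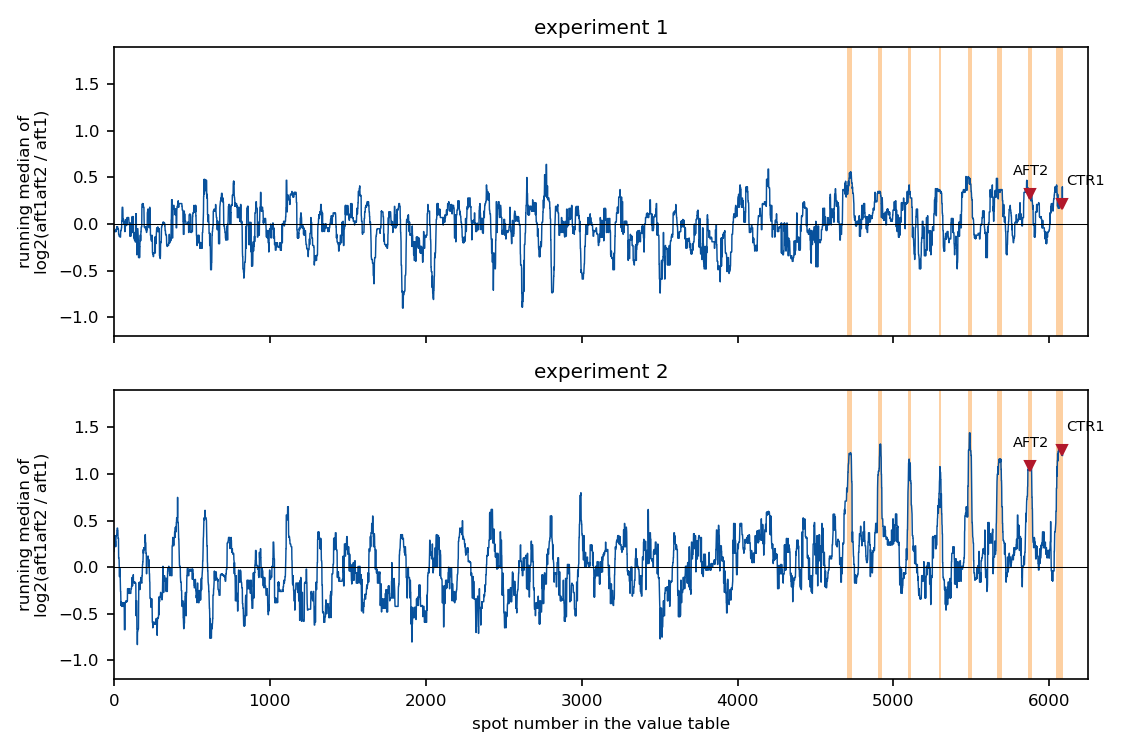
Running median over 21 consecutive spots of the log2 ratio of aft1aft2 to aft1 (vertical axes) along the spot number (horizontal axis), for experiment 1 above and experiment 2 below, with the 8 stretches above 0.8 in experiment 2 shaded. AFT2 and CTR1 (triangles) lie on such stretches, where the running median is 1.09 and 1.26 in experiment 2 and 0.32 and 0.22 in experiment 1.

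Spot numbers follow the chromosomes, and the medians of named spots by chromosome ran from -0.15 for chromosome VI to 0.27 for chromosome XVI and 0.25 for chromosome XIV. Of the higher calls with a gene name 5 were on chromosome XVI, which held 379 of the 5523 named spots. The 2 higher calls with no name were not placed on a chromosome. The named spots on which the experiments differed most were ZDS2 at -1.11 and 3.18, YRB30 at -0.39 and 3.68, SNM1 at 4.36 and 0.54, SKG6 at -0.15 and 3.48, and MAK3 at -0.28 and 3.33. None passed the test, and 4 of the 5 were high in experiment 2.

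Markers of mating type were read because the labels give none for the strains. None of the 7 genes expressed in a cells passed, and all had means above 0, with a median of 0.54. MFA2, a pheromone gene, was the highest, at 1.01 and 1.12 (limma adjusted p = 0.0791), and STE2, the receptor gene, was 0.64 and 0.44. None of the 4 genes expressed in alpha cells passed, and all had means below 0, with a median of -0.63. SAG1 was -0.75 and -1.26 (limma adjusted p = 0.0947), STE3 -0.87 and -0.64, MF(ALPHA)1 -0.20 and -0.84, and MF(ALPHA)2 0.19 and -0.64. Ratios give no level, so which mating type each strain had cannot be read from these values, and the part of these markers in the other results was not tested.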

How the data were processed

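Membranes hybridised with copies of 5 µg of total RNA were exposed for 3 days and quantified with PATHWAYS 3, per the labels. Each spot of a sample carries a single log ratio, deposited by the authors and treated here as log2. The log base, the order of the ratio, the normalisation of membranes and the genome build were not given in the sources used here. GEO's platform table gave 1 gene symbol for 5523 of 6084 spots and none for 561. All named spots matched the RefSeq gene table of R64.

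Ratios were turned to aft1aft2 minus aft1 and centred on each column's median (0.09 and 0.42 before centring). No spot was filtered out, although 7 spots were 0 in all 6 columns. The 3 ratios of an experiment closed within 0.01, so they came from 3 shared hybridisations. Least squares turned the ratios into strain levels, which were fitted on strain plus experiment (limma 3.58.1, R 4.3.3). The fit had 2 residual degrees of freedom, 4.25 prior degrees of freedom and a prior variance of 0.0754. Tests were two-sided, with Benjamini-Hochberg adjustment over all spots and a threshold of 0.05. The fit was tested on simulated data. A fitted mean can differ by 0.01 from the mean of the 2 ratios. Tables were made with Python 3.11.15, pandas 2.3.3 and numpy 2.4.6, and plots with matplotlib 3.10.9.

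Replicates 1 and 2 of a strain are its membranes in experiments 1 and 2. The members and lists were chosen with earlier results of these data known. Named were the 20 largest falls and up to 20 rises past the threshold, called list members and up to 3 more per list, all iron genes, AFT1, AFT2, their neighbours, strain markers and the 5 spots with the largest gap between experiments. The Ty lists, the list members beyond these and the stretches of spots were chosen after their values were seen. Alternatives were no centring, scaled columns, quantile normalisation, robust empirical Bayes, the 2 direct columns only, leaving out each membrane, and a running median over 21 spots. Ranges of adjusted p over alternatives that kept all membranes cover 5 of these, without robust empirical Bayes.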

Additional observations from a re-analysis of the deposited data

How the results depend on the processing

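No paired analysis was possible beyond the reported fit, because that fit already holds the experiment as a term and every value is a ratio within an experiment. The 172 calls (158 lower, 14 higher) became 52 (50 lower, 2 higher) with the columns as deposited, 112 (5 higher) with the 2 direct columns only, and 270 (39 higher) relative to the running median, an alternative chosen after seeing the data. Higher calls were 23 with columns scaled, 29 with quantile normalisation and 9 with robust empirical Bayes, where all calls were 211, 199 and 161. Leaving out 1 membrane gave 13 to 503 calls, 0 to 255 higher and 13 to 248 lower. A strain left with 1 membrane is assumed there to vary like the others. Spots at least 2-fold in both experiments were 285 (49 higher, 236 lower), as deposited 116 higher and 149 lower, and at least 4-fold 55 (1 higher, 54 lower). Of the 172 calls, 52, 169, 169, 161, 158 and 110 remained as deposited, scaled, quantile normalised, with robust empirical Bayes, relative to the running median and with direct columns only.

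Among 165 named spots no called value changed sign in these settings. Every call had the same sign in both experiments, so leaving out 1 experiment could not change it. Without 1 experiment 17 uncalled values changed sign, those whose values in the 2 experiments have opposite signs. With both experiments kept 12 did, with sizes of up to 0.50 before the change. As deposited these were FET3 at 0.188, VMR1 at 0.125, LEE1 at 0.17, MF(ALPHA)2 at 0.03, LYS2 at 0.045, URA3 at 0.043, HSF1 at 0.065 and RPB9 at 0.007. FET3 was 0.214 with columns scaled and 0.08 with quantile normalisation. Relative to the running median ATX1 was -0.077, FRE4 -0.137, FIT2 -0.148, HIS3 -0.128, VMR1 0.093, LEE1 0.065, MF(ALPHA)2 0.045, HSF1 0.235 and RPB9 0.103. FTR1 passed with columns scaled (limma adjusted p = 0.0266), with quantile normalisation (0.0426) and relative to the running median (0.0185), and COT1 in the first 2 (0.0325 and 0.0409). The causes of these changes were not tested. The search of promoters for an Aft motif was not run, because no sequence was used here. Spot intensity over background is unknown, so weak spots could not be told from strong ones.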

Other observations

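Of 71 called spots with gene names in none of the lists, 7 are given here, chosen after their values were seen and standing for no group. ECM33, a cell wall protein gene, was -2.37 and -2.58, or -2.47 ± 0.23. PMA1, the proton pump of the plasma membrane, was -2.0 and -2.56, or -2.28 ± 0.26. GAP1, the general amino acid permease, was -1.56 and -1.53, and UTH1, of the same family as SIM1, -1.47 and -1.58. All of them passed limma's test at the adjusted threshold with every membrane kept. Most of these 7 calls were lost when aft1 rested on 1 membrane, as were most calls described above. The 7 genes are not followed singly through the other alternatives here.

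HAP1, a transcription factor gene that responds to haem, was -2.02 and -2.29, or -2.15 ± 0.24. In laboratory strains related to S288C a Ty1 element sits in HAP1, and whether the strains here carry it is not known, so the spot may share signal with the Ty1 spots described above, which was not tested. PET9, the mitochondrial carrier of adenine nucleotides, was -1.28 and -2.09 (limma adjusted p = 0.0412). ASC1, a protein of the small ribosomal subunit that was not in the ribosomal protein list, was -1.17 and -1.68 (limma adjusted p = 0.0438).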
